A study of Drosophila melanogaster with 2 samples.

Results

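The 10 Polycomb group genes ph-p, ph-d, Psc, Su(z)2, Pc, Sce, E(z), esc, Su(z)12 and pho were examined for binding of the transcription cofactor subunit NC2alpha in Drosophila melanogaster embryos. They are 10 of 18164 genes, and 10 of 13945 protein-coding genes, on the 6 chromosomes with peaks. The genes were chosen by name with the NC2alpha peaks at them already in view, so their peak values are a description and carry no test. The study holds 1 group: whole embryos of mixed sex, 0 to 24 hours old, of a transgenic line that stably carries NC2alpha with eGFP at its C terminus. Chromatin was precipitated with an antibody against GFP and sequenced in 2 biological replicates (ChIP-seq). A whole-embryo sample mixes all tissues and stages, so binding in few cells and weak binding in many cells cannot be told apart. No untagged or untreated group was analysed here. Peaks had been called by the authors for each replicate and for the pooled replicates, 30000 in each list. They kept an optimal list of 2174 peaks that passed a filter on reproducibility between replicates. The optimal peaks were the 2174 pooled peaks of highest signal, with a lowest signal of 81.95, a median of 118 and a highest of 1230. Signal is the authors' score per peak relative to a control, and neither its scale nor the sequencing depth is known here. A peak was assigned to a gene when its summit lay within 500 bp of an annotated transcription start site (TSS), inside the gene, or in the intergenic interval next to it.

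NC2alpha pairs with NC2beta, and the dimer binds TATA-binding protein on promoter DNA and modulates the start of transcription. Polycomb group proteins keep developmental genes silent once their pattern has been set in the embryo. They act in complexes: Polycomb repressive complex 1 (PRC1) compacts chromatin and ubiquitylates histone H2A, Polycomb repressive complex 2 (PRC2) methylates histone H3, and DNA-binding factors bring them to Polycomb response elements (PREs). Of the genes examined, ph-p, ph-d, Psc, Su(z)2, Pc and Sce encode PRC1 or PRC1-like subunits, E(z), esc and Su(z)12 encode PRC2 subunits, and pho encodes a DNA-binding zinc finger protein. ph-p and ph-d are tandem copies of polyhomeotic on chromosome X, transcribed in the same direction and 2923 bp apart.

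The strongest peak at any of the 10 genes lay in ph-p, in DNA with no aligned counterpart in its copy ph-d, and the sequence is shown for that reason. The sequences are from RefSeq's Release 6 of the genome (build dm6), read 5′ to 3′ on the minus strand, which is the coding strand of both genes. Capitals mark bases with no aligned counterpart in the other copy. The ph-p stretch is chrX:2137218-2137517, in an intron, and holds the summit at 2137337. The ph-d stretch is chrX:2123629-2123778, upstream of the gene, and spans the matching position.
ph-p, strongest peak: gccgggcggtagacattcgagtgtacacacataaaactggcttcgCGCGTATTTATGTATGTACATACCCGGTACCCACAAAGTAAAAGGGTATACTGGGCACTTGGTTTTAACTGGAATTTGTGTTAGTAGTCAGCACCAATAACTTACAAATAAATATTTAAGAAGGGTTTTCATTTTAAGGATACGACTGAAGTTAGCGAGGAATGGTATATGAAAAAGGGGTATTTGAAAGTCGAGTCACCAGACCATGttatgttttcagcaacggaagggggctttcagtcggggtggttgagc
ph-d, matching position: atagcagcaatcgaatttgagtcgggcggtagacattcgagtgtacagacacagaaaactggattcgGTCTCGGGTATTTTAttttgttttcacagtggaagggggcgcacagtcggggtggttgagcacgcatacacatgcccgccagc
ph-d upstream, peak between the genes: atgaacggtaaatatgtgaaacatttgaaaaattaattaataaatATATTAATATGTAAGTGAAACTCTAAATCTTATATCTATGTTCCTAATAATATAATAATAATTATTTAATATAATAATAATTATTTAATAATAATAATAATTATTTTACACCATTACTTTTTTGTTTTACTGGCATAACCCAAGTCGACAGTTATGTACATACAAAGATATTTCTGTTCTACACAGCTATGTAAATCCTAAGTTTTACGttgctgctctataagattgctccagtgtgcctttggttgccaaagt
The last sequence is chrX:2124007-2124306, around the summit at 2124068 between ph-d and ph-p. The ph-p stretch has 208 bases with no counterpart (2137265 to 2137472), where ph-d has 15 bases (2123697 to 2123711). Beside it, 529 aligned columns were 90.7% identical and 387 columns on the other side were 70.5% identical. The summit upstream of ph-d also lay in unaligned DNA, 209 bases (2124053 to 2124261) where ph-p has 98 bases (2137856 to 2137953). Here the matching position in ph-p is not free of peaks. Another optimal ph-p peak (2137896 to 2137997, pooled signal 216) overlaps those 98 bases, with its pooled summit at 2137969, just outside them. Further upstream, 358 aligned columns were 81.0% identical. None of the 3 printed sequences holds GAGAG or GCCAT or CAGCTG on either strand.

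The optimal peaks at Polycomb genes fell at the neighbouring gene pairs ph-d and ph-p on chromosome X and Psc and Su(z)2 on chromosome arm 2R. Of 13 distinct peaks assigned to the 10 genes, 5 were on X and 8 on 2R, and 0 were at Pc, Sce, E(z), esc, Su(z)12 or pho. An optimal summit lay within 500 bp of a TSS of 2 of 10 genes (20%), ph-p and Psc, beside 10.5% of all protein-coding genes. With a limit of 200 bp it was Psc alone, beside 7.58% of protein-coding genes. With summits inside the gene or in the next interval added, 4 of 10 genes (40%) had an optimal peak, beside 16.6% of protein-coding genes. ph-d and Su(z)2 were added only by peaks in the next interval, and the ph-d peak also counts for ph-p. ph-p, Psc and Su(z)2 are 12162, 14998 and 11411 bp long and ph-d is 7560 bp, against a median of 2164 bp over the other 13935 protein-coding genes. A longer gene or interval offers more room for a summit, and the part of gene or interval length in these counts was not tested. The 13 peaks had signals from 93.9 to 894 with a median of 137, and 8 of them were at or above 118, the median of all optimal peaks. All 13 were at the largest −log10 q in the list, 3.59, as were 89.5% of all optimal peaks.

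**Figure D1:**
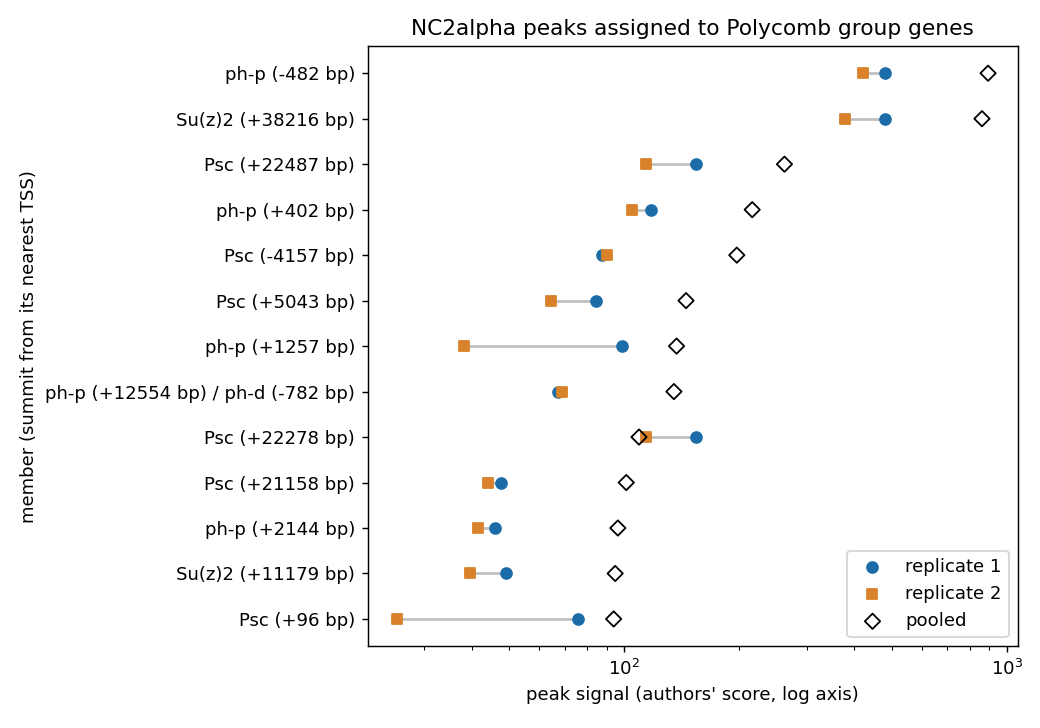
Signal of the 13 optimal peaks assigned to Polycomb group genes (log axis), in replicate 1 (circles), replicate 2 (squares) and the pooled list (diamonds), labelled by gene and distance of the summit from that gene's nearest TSS. The peaks of ph-p and Su(z)2 at the top, with pooled signals of 894 and 862, stand clear of the other 11, which lie between 93.9 and 263. The replicate values drawn for Psc at +22278 bp are those of the strongest overlapping peaks, which also overlap the summit at +22487 bp.

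ph-p (dm6 chrX:2126210-2138371, minus strand) encodes the proximal polyhomeotic, a PRC1 subunit whose SAM domain lets it form polymers. The strongest ph-p peak had a signal of 480.9 in replicate 1 and 420.7 in replicate 2 (mean 451 ± 42.5, SD, n = 2). The pooled signal was 894, and the peak ranked 7 of 2174. The replicates placed it alike, at rank 7 of the list of replicate 1 and rank 6 of that of replicate 2, with summits 0 and 11 bp from the pooled summit. Its summit lay in an intron, 482 bp upstream of 1 of the 3 annotated ph-p TSSs, the one at 2136855. Of all protein-coding genes, 5 had a stronger optimal summit at a TSS, and 9 had a stronger one at any place.

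Of 4 other optimal peaks assigned to ph-p, 3 lay in the gene and 1 in the interval to ph-d. A peak in the 5′ UTR, with its summit 402 bp downstream of the farthest upstream TSS (2138371), had 117.3 in replicate 1 and 104.9 in replicate 2, and 216 in the pooled list (rank 285). In this peak, as in the strongest one, replicate 1 exceeded replicate 2 by little, 1.12-fold here and 1.14-fold there. A peak in an intron at 2135365 had 98.7 in replicate 1 and 38.1 in replicate 2, a 2.59-fold difference, and 137 in the pooled list. Another intronic peak, at 2134478, had 46.1 and 41.6 in the replicates and 96.3 pooled. Of the ph-p peaks, only the one at 2135365 differed by over 2-fold between the replicates. The TSS at 2136622 had a weaker summit 88 bp downstream, with 23.9 in replicate 1, 37.6 in replicate 2 and a pooled 68.7, below the filter.

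ph-d (chrX:2115727-2123286, minus strand) encodes the distal polyhomeotic, the companion PRC1 subunit. Its only optimal peak lay in the interval to ph-p, with the summit 782 bp upstream of the ph-d TSS at 2123286 and 12554 bp downstream of the nearest ph-p TSS. The peak had 67.2 in replicate 1, 68.7 in replicate 2 and 135 in the pooled list (rank 832), a 1.02-fold difference between the replicates. The summits at the ph-d TSSs stayed below the filter. The strongest, 102 bp downstream of the TSS at 2123286, had 31.1 in replicate 1, 24.5 in replicate 2 and a pooled 61.2. No pooled or replicate summit lay between 2123184 and 2124064, which includes the position matching the strongest ph-p peak.

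The sequence around the strongest ph-p summit is nearly unique in the genome. Of the 32-base stretches in the 300 bases around it, 93.3% occur once, and 18 recur upstream of ph-d, all at 2137187 to 2137235, outside the unaligned stretch. Of the 13 windows, 12 consist only of stretches that occur once (92.3%, beside 98.7% of all 2174 optimal windows). How reads that match both copies were placed by the authors is not known here, and its part in the difference between ph-p and ph-d was not tested. From the end of csw to the start of D2hgdh, the 25.8 kb of the ph locus held 5 optimal peaks, or 1.94 per 10 kb, which is 11.9 times the 0.162 per 10 kb over all 6 chromosomes. Before the filter it held 10 pooled peaks, 3.88 per 10 kb, which is 1.73 times the overall 2.24 per 10 kb.

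**Figure D2:**
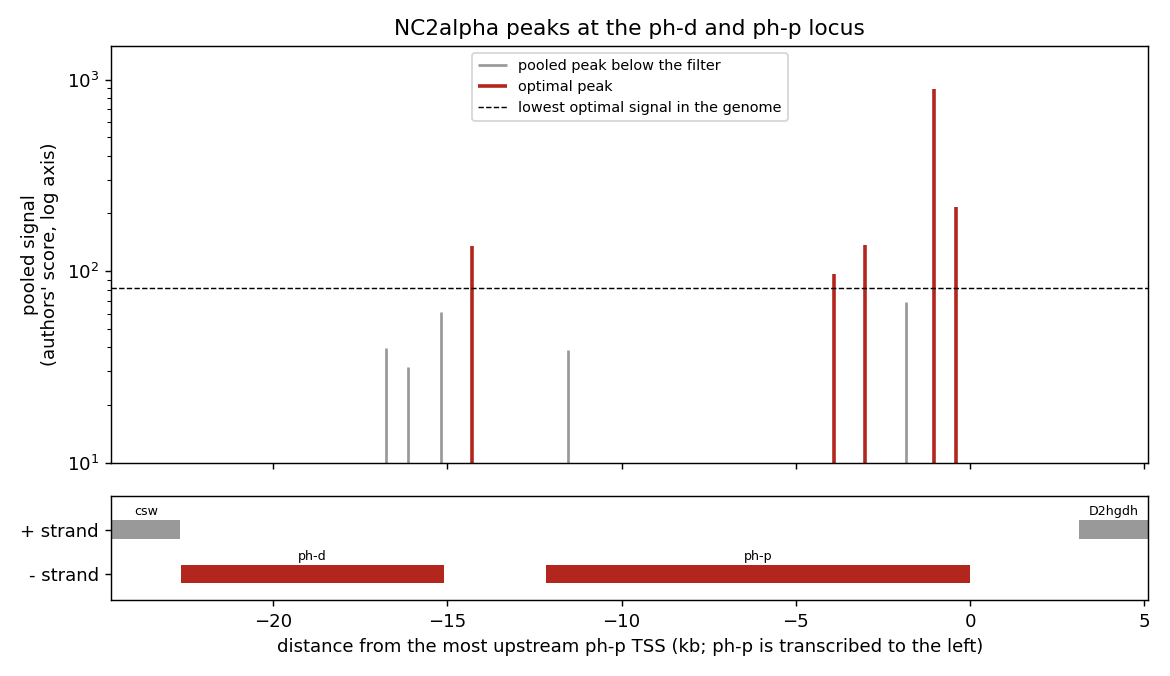
Pooled peaks across the ph-d and ph-p locus, as signal (log axis) against distance in kb from the most upstream ph-p TSS, with optimal peaks in red, pooled peaks below the filter in grey, the lowest optimal signal (81.95) as a dashed line, and genes by strand underneath. The 894 peak lies within ph-p near its 5′ end, and the single optimal peak next to ph-d, at 135, lies between the genes.

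Psc, a RING finger subunit of PRC1 that compacts nucleosome arrays, and Su(z)2, its neighbouring homologue, lie 15506 bp apart on chromosome arm 2R. Psc spans chr2R:12965997-12980994 on the minus strand and Su(z)2 chr2R:12996501-13007911 on the plus strand. Psc had 6 optimal peaks, a number that 12 protein-coding genes reached (0.0861%, Psc included), while ph-p had 5, which 22 reached (0.158%). Of the 6 Psc peaks, 4 lay in intervals that also border CG13321 or lncRNA:CR44339. Those at 12958171 and 12958380 overlapped the same peak in replicate 1. Gene length was not taken into account in these counts. The peak at the Psc TSS had 75.7 in replicate 1 and 25.5 in replicate 2, a 2.96-fold difference, and a pooled 93.9 (rank 1672), with its summit 96 bp downstream in the 5′ UTR. It ranked 896 in replicate 1 and 4555 in replicate 2, so only replicate 1 placed it among its own 2174 strongest peaks. The closest values on either side of the filter at the 10 genes were this 93.9 inside it, and outside it 70.7 for another Psc summit and 69.7 for the Pc summit.

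The stronger Psc peaks lay away from its TSSs. The strongest, at 12958171 in the interval to CG13321, 22487 bp downstream of the Psc TSS, had 154.3 in replicate 1, 114.4 in replicate 2 and a pooled 263 (rank 176). A neighbouring pooled summit at 12958380, with a pooled 109, overlapped the same peak of 154.3 in replicate 1, whose summit at 12958291 lay between the pooled summits. In replicate 2 it overlapped the peak of 114.4, and a separate replicate 2 peak with its summit at 12958380 had 31.9. Another in that interval, at 12959500, had 47.7 in replicate 1, 44.1 in replicate 2 and a pooled 101. On the other side, 4157 bp upstream of the Psc TSS, a peak had 87.8 in replicate 1, 90.1 in replicate 2 and a pooled 197 (rank 373). That summit was also 216 bp upstream of the TSS of the long noncoding RNA lncRNA:CR44339. Inside Psc, an intronic peak 5043 bp downstream of the TSS had 84.6 in replicate 1, 64.3 in replicate 2 and a pooled 145. Apart from the summit at 12958380 and the peak at its TSS, the replicates differed by at most 1.35-fold at the Psc peaks.

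Su(z)2 had 2 optimal peaks, both downstream of the gene in the interval to CG13323 and none at its TSSs. The stronger, at 13035339, had 479.6 in replicate 1 (rank 9) and 378.9 in replicate 2 (rank 11), with a mean of 429 ± 71.3 (SD, n = 2). With a pooled 862 it ranked 11 of 2174, close to the strongest ph-p peak. It lay 38216 bp downstream of the nearest Su(z)2 TSS and 11917 bp downstream of the CG13323 TSS, so the files alone do not tie it to either gene. The weaker, at 13008302 and 11179 bp downstream of the TSS, had 49.2 in replicate 1, 39.6 in replicate 2 and a pooled 94.8. At the Su(z)2 TSS, a summit 132 bp upstream had 56.6 in replicate 1, 14.1 in replicate 2 and a pooled 69.5, below the filter. The replicate 2 value is that of a peak whose summit was at -312 bp from the pooled one. The 89.0 kb from CG13321 to CG13323 held 8 optimal peaks, 0.899 per 10 kb or 5.54 times the density over all 6 chromosomes. Its 56 pooled peaks amounted to 6.29 per 10 kb, or 2.81 times the overall density, and were spread over both genes and their flanks.

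**Figure D3:**
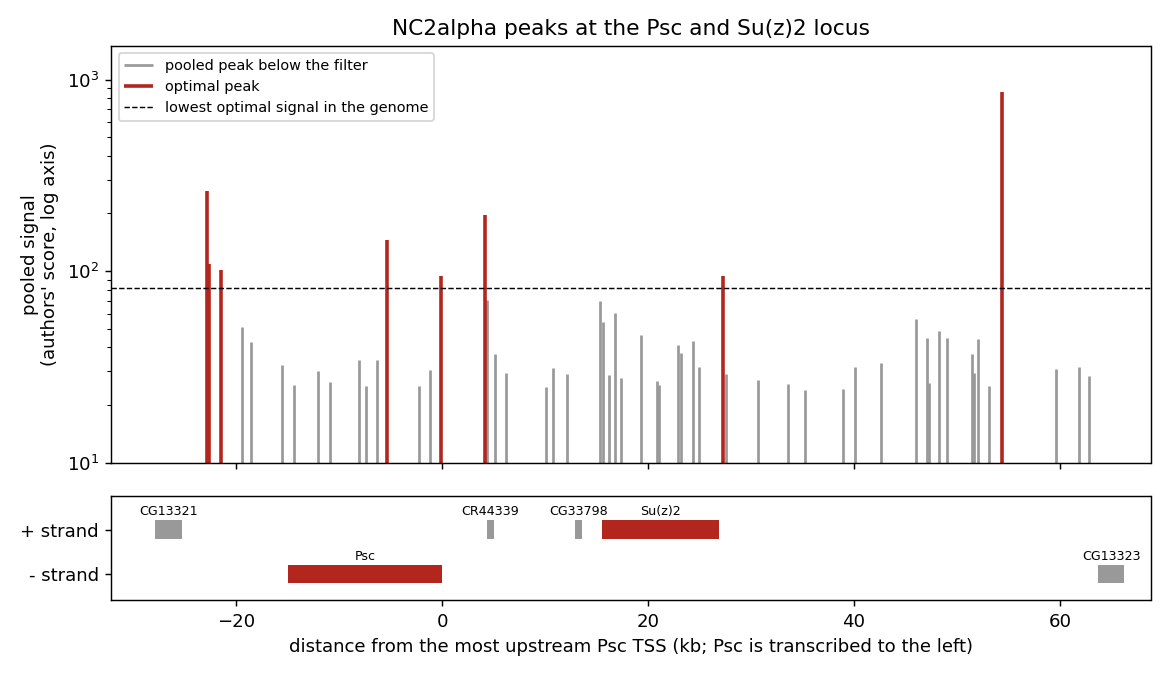
Pooled peaks across the Psc and Su(z)2 locus, as signal (log axis) against distance in kb from the most upstream Psc TSS, with optimal peaks in red, pooled peaks below the filter in grey, the lowest optimal signal (81.95) as a dashed line, and genes by strand underneath. Of 56 pooled peaks, 8 are optimal, and the highest, at 862, lies far downstream of Su(z)2.

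Pc (chr3L:21306138-21318020), the chromodomain subunit of PRC1 that binds methylated histone H3, had 1 pooled summit, 62 bp upstream of its TSS. It had 47.7 in replicate 1, 20.2 in replicate 2 and a pooled 69.7, which ranked 2915 among the pooled peaks. Sce (chr3R:27680431-27682029), the RING finger ubiquitin ligase of PRC1, was the gene of the 10 with no pooled summit at a TSS. The nearest pooled summit lay 839 bp upstream of the gene's TSS, with 27.9 in replicate 1, no overlapping peak in replicate 2, and a pooled 34.2. In replicate 1 alone, a summit at the Sce TSS had 16.7. Both PRC1 genes outside the paired loci were thus below the filter, and Sce was the lower of them.

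The PRC2 genes had weak summits at their TSSs and none in the optimal list. E(z) (chr3L:10634575-10638130), the methyltransferase, had a pooled 48.3 at 60 bp upstream of a TSS, with no peak in replicate 1 and 45.1 in replicate 2. This summit also lay within 500 bp of a TSS of Cnep1r2. esc (chr2L:11827204-11829405), a WD repeat subunit, had 20.8 in replicate 1, 25.6 in replicate 2 and a pooled 49.8, with its summit 41 bp upstream of the TSS. Su(z)12 (chr3L:19918242-19923462), a zinc finger subunit, had 29.3 in replicate 1, 33.6 in replicate 2 and a pooled 59.4, with the summit shared with Pfdn6. The 3 pooled values span 48.3 to 59.4, all above the median of 33.5 over the 30000 pooled peaks and below the lowest optimal signal. Like Pc and Sce, these 3 genes and pho are on the minus strand. pho (chr4:1172469-1181628), whose product binds PREs, had 23.7 in replicate 1, 26.3 in replicate 2 and a pooled 48.9, with its summit 250 bp upstream of the TSS on chromosome 4.

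Before the filter, most of these genes had a summit at a TSS, and so did many genes. In the pooled list, 9 of 10 had one, beside 51.3% of protein-coding genes, and 10 of 10 had a summit at any place, beside 71.6%. In replicate 1, 9 of 10 had a summit at a TSS, beside 52.9%, and E(z) lacked one. In replicate 2, 9 of 10 had one, beside 45% of protein-coding genes, and Sce lacked one. The genes had 69 distinct pooled peaks, 10 on X, 51 on 2R and 8 elsewhere. Su(z)2 had 33 of them, Psc 18, ph-p 7 and ph-d 4, while the other 6 genes had 1 or 2 each. Of the 56 pooled peaks of these genes outside the optimal list, 30 overlapped a peak in both replicates (53.6%), beside 46.8% of all 27826 such peaks.

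The replicates were close at most of the optimal peaks of these genes. Of the 13, 11 had replicate values within 2-fold of each other (84.6%), beside 81.9% of the 2158 optimal peaks with both values. The exceptions were the intronic ph-p peak at 2135365 and the Psc TSS peak, both higher in replicate 1. The median log2 ratio of replicate 1 to replicate 2 was 0.31 over the 13 peaks (SD 0.50) and 0.38 over all 2158 (SD 0.64), so replicate 1 read higher in general. Within the 13, the log2 ratio ran from -0.04, at the peak near lncRNA:CR44339, to 1.57, at the Psc TSS. The replicate value, also behind the 81.9%, is that of the strongest overlapping peak. With the replicate summit required within 100 bp of the pooled summit, 9 of 13 peaks were within 2-fold. No share over all optimal peaks is given for that stricter rule. The 2 peaks of these genes that left were the Psc summits at 12958171, which then had no value in replicate 1, and at 12958380, which had 154.3 in replicate 1 and 31.9 in replicate 2.

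**Figure D4:**
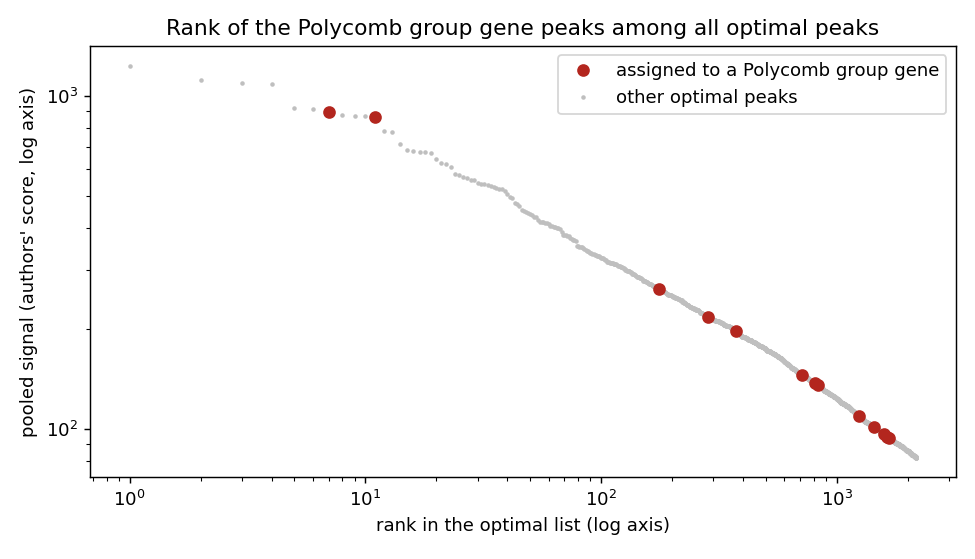
Pooled signal against rank in the optimal list (both log axes) for the 13 peaks assigned to Polycomb group genes (red) and all other optimal peaks (grey). The peaks at ranks 7 and 11 stand near the top of the list, and the others run from rank 176 to rank 1672.

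Short motifs were counted on both strands in the 300 bases around each of the 13 summits. Some are of factors that bring Polycomb proteins to DNA, and some of promoters. CAGCTG is an E-box, CAGGTAG the motif of the factor Zelda, and GTGTGT a GT repeat. GAGAG, the core bound by the GAGA factor Trl, was in 7 of 13 windows (53.8%, exact 95% binomial interval 25.1 to 80.8%), beside 41.1% of all 2174 optimal windows. GCCAT, the core of the Pho site, was in 4 of 13 (30.8%, 9.09 to 61.4%), beside 39.2%. Each interval contains the share of all windows, but the windows come only from the ph locus (5) and the Psc and Su(z)2 locus (8). The windows at 12958171 and 12958380 also overlap. The intervals treat all 13 as independent, so neither enrichment nor its absence can be read from them. The palindrome CAGCTG was in 3 of 13 (23.1%), beside 15.2%, GTGTGT in 3 of 13 (23.1%), beside 22.4%, and TATAAA in 6 of 13 (46.2%), beside 38.1%. In windows of 200 bases the order for TATAAA was reversed, with 23.1% of the 13 beside 28.7% of all. No window held TATCGATA, GGTCACAC, CATCNCTA or CAGGTAG, which were in 4.51%, 3.54%, 5.11% and 1.52% of all windows. GAGAG was uneven among the 13, with overlapping matches counted separately. The strong peak downstream of Su(z)2 had 7 matches, a number reached by 2.35% of all windows, and the Psc TSS window had 6, reached by 2.99%, whereas the strongest ph-p window had 0. That ph-p window had no GCCAT and 1 CAGCTG. The window is centred on the summit and starts at 2137187, outside the stretch printed above, which holds no CAGCTG. The median GC content was 39.3% in the 13 windows and in all 2174.

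Other genes of Polycomb and trithorax biology were listed for comparison. Of 17 other Polycomb group genes, 1 had an optimal summit at a TSS (5.88%), beside 10.5% of all protein-coding genes, and 3 had an optimal summit at any place (17.6%), beside 16.6%. The 1 gene was Kdm2, which encodes a histone demethylase, with 69.7 in replicate 1, 36.4 in replicate 2 and a pooled 100. The number of annotated TSSs per gene was not taken into account in these counts. Of 8 genes for factors linked to PREs, 3 had an optimal summit at a TSS (37.5%, beside the same 10.5%). These were Trl (93.9 in replicate 1, 82.6 in replicate 2, pooled 174), lolal (76.1, 41.6 and pooled 126) and psq (61.9, 42.0 and pooled 112), and all encode BTB domain proteins. Of 21 trithorax group genes, whose products counter Polycomb silencing, 4 had one (19%, beside 10.5%): mor, Mnn1, fs(1)h and kis. Their strongest TSS summits had pooled signals of 189, 105, 95.7 and 88.3. The mor summit was shared with Hel89B and that of fs(1)h with mys. With the limit of 500 bp, the pooled 894 of ph-p was above every one of these, but its summit lay 482 bp from the TSS. Within 200 bp, the strongest ph-p summit had a pooled 68.7, below the filter. That is lower than the Trl, lolal, psq, Mnn1 and Kdm2 summits, which all lay within 200 bp.

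**Figure D5:**
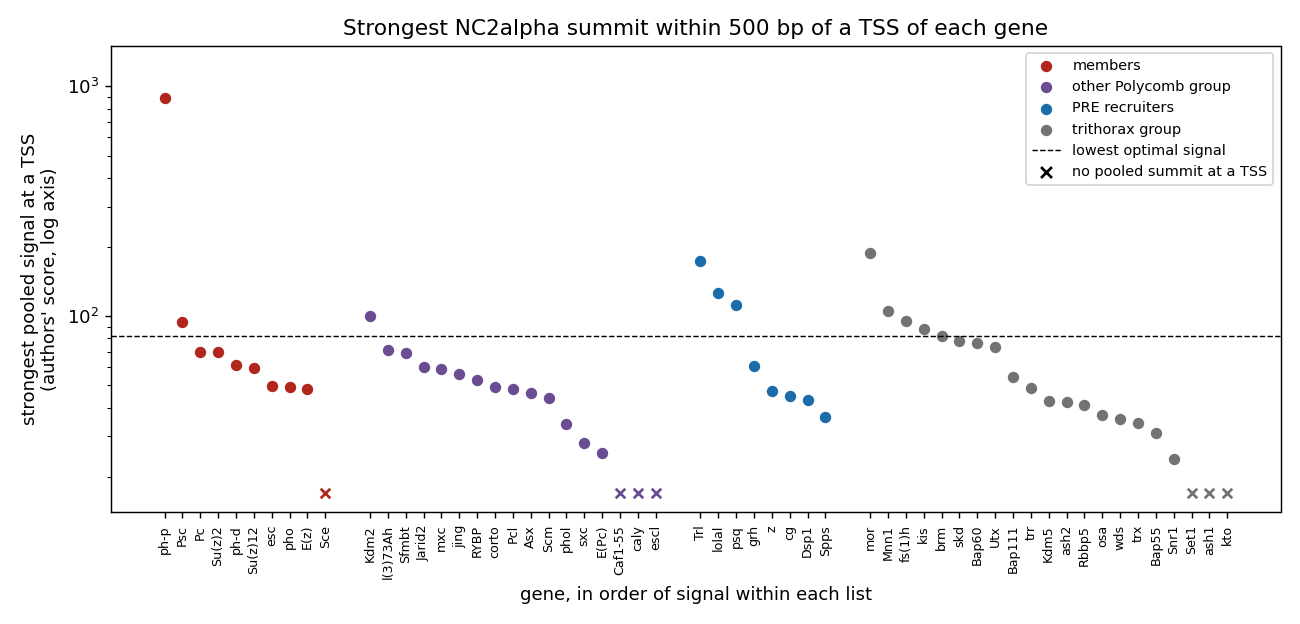
Strongest pooled signal (log axis) within 500 bp of a TSS for each gene of 4 lists, with the 10 Polycomb group genes in red, 17 other Polycomb group genes in purple, 8 PRE recruiter genes in blue and 21 trithorax group genes in grey. A cross marks a gene with no pooled summit at a TSS, and the dashed line is the lowest optimal signal (81.95). ph-p, at 894 by a summit 482 bp from its TSS, is above every other gene shown, and Psc, at 93.9, is just above the line.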

How the data were processed

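Peak lists from 2 replicate libraries of 1 group were used on build dm6. Per the labels and the deposited notes, the authors called peaks against a control, for each replicate and for the pool, and filtered them by irreproducible discovery rate. Caller, aligner and thresholds were not given in the sources used here. Peak signal, the −log10 q value and the summit offset (other) were used as deposited by the authors. Depth is unknown, and intervals cover counting error only. A label field gives NC2alpha as the antibody, while the sample description gives anti-GFP, which the text follows. Nothing in the labels says how separately the biological replicates were raised.

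Positions count from 1. Genes were those of Ensembl release 115, leaving out 5809 transposon annotations, and sequence that of Release 6. All 10 genes were matched by symbol. The replicate value of an optimal peak is that of the strongest peak overlapping it by at least 1 base. The ph copies were aligned with blastn 2.17.0 (E value up to 1e-05). Exact binomial intervals are Clopper-Pearson at 95%. Gene assignment was tested on simulated data. Computation used Python 3.11.15, numpy 2.4.6, pandas 2.3.3, scipy 1.17.1 and matplotlib 3.10.9.

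The 10 genes, the gene lists and the motifs were chosen with earlier results of these data known. The text names the 10 genes, genes at or beside their optimal summits, and listed genes with an optimal summit at a TSS. The other observations also name listed genes with an optimal summit elsewhere, and genes at those summits. Alternatives were list length, each replicate alone, TSS distance, summit against peak bases, interval bounds, window length and, chosen after seeing the data, counting transposon insertions as genes. Lists on build dm3 were not used.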

Additional observations from a re-analysis of the deposited data

How the results depend on the processing

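Of the alternative values, 46 moved by at most 1.5 times (counts) or stayed in the 95% interval (shares), and 14 did not. For the motif shares this says little, since intervals from 13 windows are wide. A motif absent from the windows of 300 bases is also absent from those of 200, so its share could not move. ph-p, ph-d, Psc and Su(z)2 had a peak at some place under every alternative run. With the 1087 strongest optimal peaks, 1 of 10 genes (ph-p) had a summit at a TSS, beside 5.72% of protein-coding genes, with 8 distinct peaks, 0 other Polycomb and 1 trithorax gene. With the 4348 strongest pooled peaks there were 6 of 10 genes (Pc, Su(z)12, ph-d and Su(z)2 added), beside 18.8%, with 20 distinct peaks, 5 other Polycomb and 8 trithorax genes. Within 200 bp of a TSS, 1 gene remained (Psc), beside 7.58% of protein-coding genes, since the ph-p summits lie 482 and 402 bp away. Within 1000 bp ph-d joined, beside 12.5%. Other Polycomb genes numbered 2 of 17 within 1000 bp, beside the same 12.5%, and 2 of 17 by any base of the peak, beside 11.4%. The 2174 strongest peaks of 1 replicate gave 2 to 3 of 10 genes at a TSS, beside 10.2 to 10.7% of protein-coding genes. At any place they gave 4 to 5, beside 15.8 to 17.1%, with 10 to 13 distinct peaks. At a TSS they gave 2 to 3 of 17 other Polycomb genes, 3 to 4 of 21 trithorax genes and 3 to 4 of 8 PRE genes. Replicate 2 alone called ph-p and E(z) at a TSS, and replicate 1 alone called ph-p, Psc and Su(z)2. GCCAT was in 7.69% of the 13 windows of 200 bases (exact interval 0.195 to 36%), beside 28.5% of all optimal windows, and in 30.8% with 300 bases, beside 39.2%. TATAAA went from above the share of all windows with 300 bases (46.2% beside 38.1%) to below it with 200 (23.1% beside 28.7%). With 200 bases, GAGAG (38.5% beside 28.3%), CAGCTG (15.4% beside 9.94%) and GTGTGT (23.1% beside 14.4%) stayed above it. Counting transposon insertions as genes, chosen after seeing the data, left the genes called as they were. No paired analysis was possible because a second condition is lacking. Unknown depth limits every value below the filter.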

Other observations

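Strong peaks also lay inside or next to some trithorax and PRE genes, away from the TSSs of those genes. The interval next to ash1 held a summit at the TSS of CG14100 with 543.5 in replicate 1, 542.7 in replicate 2 and a pooled 1083, above the 894 of ph-p. Intronic summits of osa (288 in replicate 1, 239 in replicate 2, pooled 523), Trl (191, 209 and pooled 402) and trx (122, 126 and pooled 246) were each close between replicates. At any place, 8 of 21 trithorax genes (38.1%) and 5 of 8 PRE genes (62.5%) had an optimal peak, beside 16.6% of all protein-coding genes. The only cg peak lay at a TSS of Sdb. These genes with a peak are 4098 (lolal) to 59393 bp (psq) long, against the median of 2164 bp given above. The part of gene and interval length in these counts was not tested.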
